A study of Mus musculus with 6 samples.

Results

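Rbfox1, Rbfox2, Rbfox3, Nova1, Nova2, Mbnl1, Mbnl2 and Mbnl3 are 8 of the 48709 genes counted in this RNA-seq series of the mouse embryonic neocortex. They were taken by name, with earlier results of these data known. They make up 3 families of RNA-binding proteins that set which exons neurons and muscle keep in their messenger RNAs. The RBFOX proteins carry an RNA recognition motif and bind a short motif in introns beside the exons they control, and RBFOX3 is the NeuN antigen used to stain mature neurons. The NOVA proteins bind clusters of a short pyrimidine-flanked motif through KH domains and are known for splicing synaptic transcripts. The muscleblind-like (MBNL) proteins bind through CCCH zinc fingers, drive fetal-to-adult splicing switches, and are sequestered by repeat RNA in myotonic dystrophy.

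The series compared 3 wild-type embryos (WT) with 3 embryos of the genotype Rest(+/deltaExon4) (Rest_het), all of strain C57BL/6 and taken at E15.5 (embryonic days). Rest encodes a repressor of neuronal genes, and by its genotype label the mutant carries 1 allele without exon 4 beside 1 intact allele. The sample titles call the same libraries KO. The labels name no litter, sex or preparation batch, so p-values measure only the spread between these animals. The whole neocortex was dissected, and in such bulk tissue fewer cells of a type and less RNA per cell cannot be told apart.

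Libraries held 17835117 to 20753653 gene reads. Rest itself measured 21.0, 19.7 and 21.1 CPM (read counts relative to the library total, scaled by TMM) in the WT libraries and 16.7, 19.0 and 18.6 CPM in those of Rest_het, a total over all exons that does not check the deletion. LacZ reads were found in all 3 WT libraries and in 0 of the Rest_het libraries, and Cre-ERT2 reads the other way round, so effects of the Rest allele and of these transgenes or their background cannot be told apart. All 8 neocortex markers checked, Tbr1 among them, were present in each group, with summed levels of 1657 to 1947 CPM in WT and 1508 to 1658 CPM in Rest_het. Their log2 fold changes (Rest_het minus WT) were below 0 for 7 and above for 1, with a median of -0.15, beside 0.0054 over all genes. By an unadjusted edgeR p under 0.05, 1 was higher and 1 lower, against 11.7% of all genes in either direction. WT replicate 1 stood apart, with 71 genes more than 2-fold below the lowest other library, against 2 to 4 such genes in each of the other libraries.

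The members of a family share their RNA-binding domains, so the coding stretches below show how far reads of one gene could be taken for another. For each family, the 120 coding bases most alike between members were read from the GENCODE M21 transcripts (GRCm38). They are written 5′ to 3′ in lower case, and capitals mark bases that differ from the first member of the family. The RBFOX stretch holds the RNP1 segment of the RNA recognition motif, the NOVA stretch the loop of a KH domain that contacts RNA, and the MBNL stretch a CCCH zinc finger.
Rbfox1: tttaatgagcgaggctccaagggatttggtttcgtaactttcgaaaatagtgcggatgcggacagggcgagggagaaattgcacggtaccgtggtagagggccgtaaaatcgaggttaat
Rbfox2: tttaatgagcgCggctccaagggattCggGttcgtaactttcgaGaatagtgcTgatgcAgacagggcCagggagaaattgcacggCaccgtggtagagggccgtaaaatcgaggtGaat
Rbfox3: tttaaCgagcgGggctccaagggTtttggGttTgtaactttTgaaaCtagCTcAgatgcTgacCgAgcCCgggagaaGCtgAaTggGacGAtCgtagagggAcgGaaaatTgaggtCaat
Nova1: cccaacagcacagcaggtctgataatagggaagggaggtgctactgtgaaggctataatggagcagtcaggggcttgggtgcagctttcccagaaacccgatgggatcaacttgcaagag
Nova2: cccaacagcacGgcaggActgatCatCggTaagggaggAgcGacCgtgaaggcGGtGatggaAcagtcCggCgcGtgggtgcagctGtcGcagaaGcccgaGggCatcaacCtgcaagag
Mbnl1: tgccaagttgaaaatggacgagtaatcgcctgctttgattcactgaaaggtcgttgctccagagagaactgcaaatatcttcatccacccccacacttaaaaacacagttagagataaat
Mbnl2: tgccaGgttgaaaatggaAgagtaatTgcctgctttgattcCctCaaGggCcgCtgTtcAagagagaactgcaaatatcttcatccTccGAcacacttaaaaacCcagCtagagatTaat
Mbnl3: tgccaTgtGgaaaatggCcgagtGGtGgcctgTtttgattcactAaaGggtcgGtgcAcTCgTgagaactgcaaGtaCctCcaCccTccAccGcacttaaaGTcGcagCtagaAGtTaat
Against Rbfox1, the stretch was identical at 92.5% of bases in Rbfox2 and at 77.5% in Rbfox3. Nova2 was identical to Nova1 at 82.5%. Mbnl2 was identical to Mbnl1 at 86.7% and Mbnl3 at 76.7%. Over all annotated transcripts, the longest run without a difference was 29 bases, between Rbfox1 and Rbfox2, and 26 bases in the Mbnl family, between Mbnl1 and each of the other two. Nova1 and Nova2 shared at most 16 bases. These runs are far shorter than the reads of 126 bases, so even in their best conserved part the paralogs differ within a read's length.

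The 8 genes spanned a wide range of levels in this tissue. Per kilobase of merged exons, Mbnl1 came first with a mean over the 6 libraries of 23.7 RPKM and a range from 5.51 to 36.1. Rbfox3 followed with 23.5 RPKM (20.1 to 25.9) and Rbfox1 with 19.2 RPKM (16.1 to 26.7). These 3 neighbours overlapped in their ranges, so their order is not set. Rbfox2, with 11.4 RPKM (9.91 to 12.7), lay below Rbfox1 in each of the 6 libraries. The Nova genes formed the next level, at 2.07 RPKM for Nova1 (1.42 to 3.45) and 1.84 RPKM for Nova2 (1.48 to 2.08), with overlapping ranges. Mbnl2 measured 0.810 RPKM (0.695 to 0.919) and Mbnl3 0.583 RPKM (0.534 to 0.648), and Mbnl2 lay above Mbnl3 in each of the 6 libraries. The Mbnl family thus held Mbnl1, among the 3 highest genes, and Mbnl3, the lowest.

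**Figure D1:**
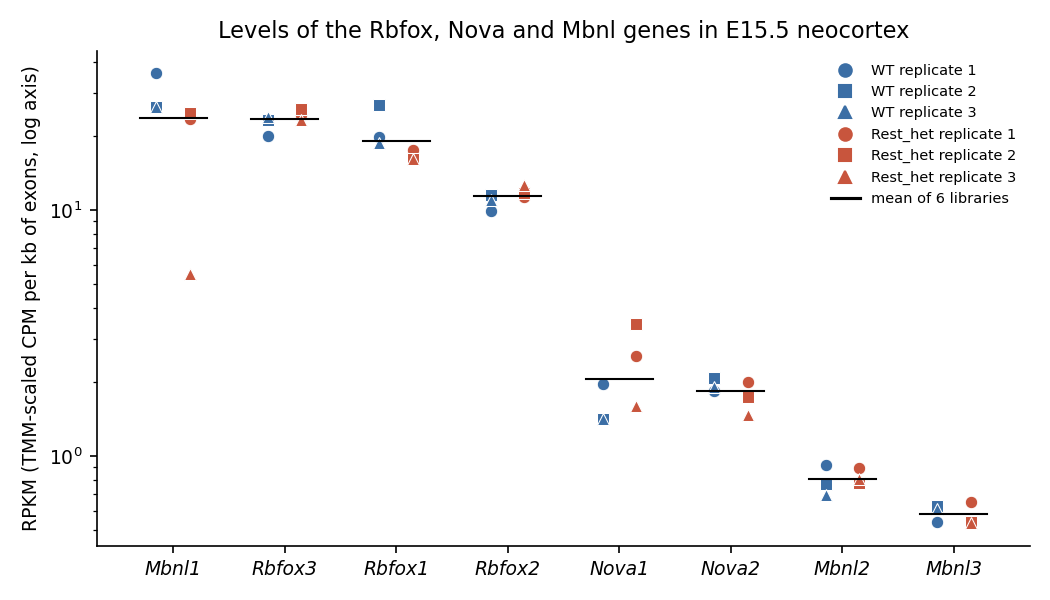
Level of each gene per library, as RPKM (TMM-scaled CPM per kilobase of merged exons) on a log axis, ordered by the mean of the 6 libraries (black line). Mbnl1, Rbfox3, Rbfox1 and Rbfox2 lie near or above 10 RPKM, apart from Mbnl1 in Rest_het replicate 3 at 5.51 RPKM, while Mbnl2 and Mbnl3 lie below 1 RPKM.

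Within the families, shares of the length-scaled level differed in evenness. In WT libraries Rbfox3 made up 40.9 ± 3.38%, Rbfox1 39.4 ± 4.25% and Rbfox2 19.7 ± 0.914% of the Rbfox level (SD, n = 3). In Rest_het libraries these shares were 46.2 ± 1.80%, 31.3 ± 1.5% and 22.5 ± 1.68% (SD, n = 3). Mbnl1 made up 95.4 ± 0.613% of the Mbnl level in WT and 89.7 ± 8.12% in Rest_het (SD, n = 3), the larger spread coming with 1 library described below. Nova1 made up 45.0 ± 5.85% of the Nova level in WT and 58.2 ± 7.49% in Rest_het (SD, n = 3). The Nova2 counts leave out reads over a gene on the opposite strand, as described below. With such reads added, the Nova1 share was 37.5 ± 4.44% in WT and 51.2 ± 7.48% in Rest_het (SD, n = 3).

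The comparison of genotypes asked whether any of these splicing factors differs between WT and Rest_het cortex. All 8 genes passed the filter on low counts, and 0 were called by edgeR's quasi-likelihood test at an adjusted p under 0.05, against 0.123% of the 15385 genes tested (0.065% higher and 0.0585% lower in Rest_het). DESeq2 also called 0 of the 8, against 0.826% of all genes. The edgeR adjusted p ranged from 0.36 for Rbfox1 to 0.93 for Mbnl3. Rbfox1 and Nova1, 2 of the 8, had an unadjusted edgeR p under 0.05, against 11.7% of all genes. The 3 values of one group lay outside those of the other for 2 of the 8, Rbfox1 and Mbnl1, both lower in Rest_het, against 19.3% of all genes (8.93% lower and 10.4% higher). Of the 8 log2 fold changes 4 were below 0 and 4 above, with a median of 0.0022, beside a median of 0.0054 over all genes.

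**Figure D2:**
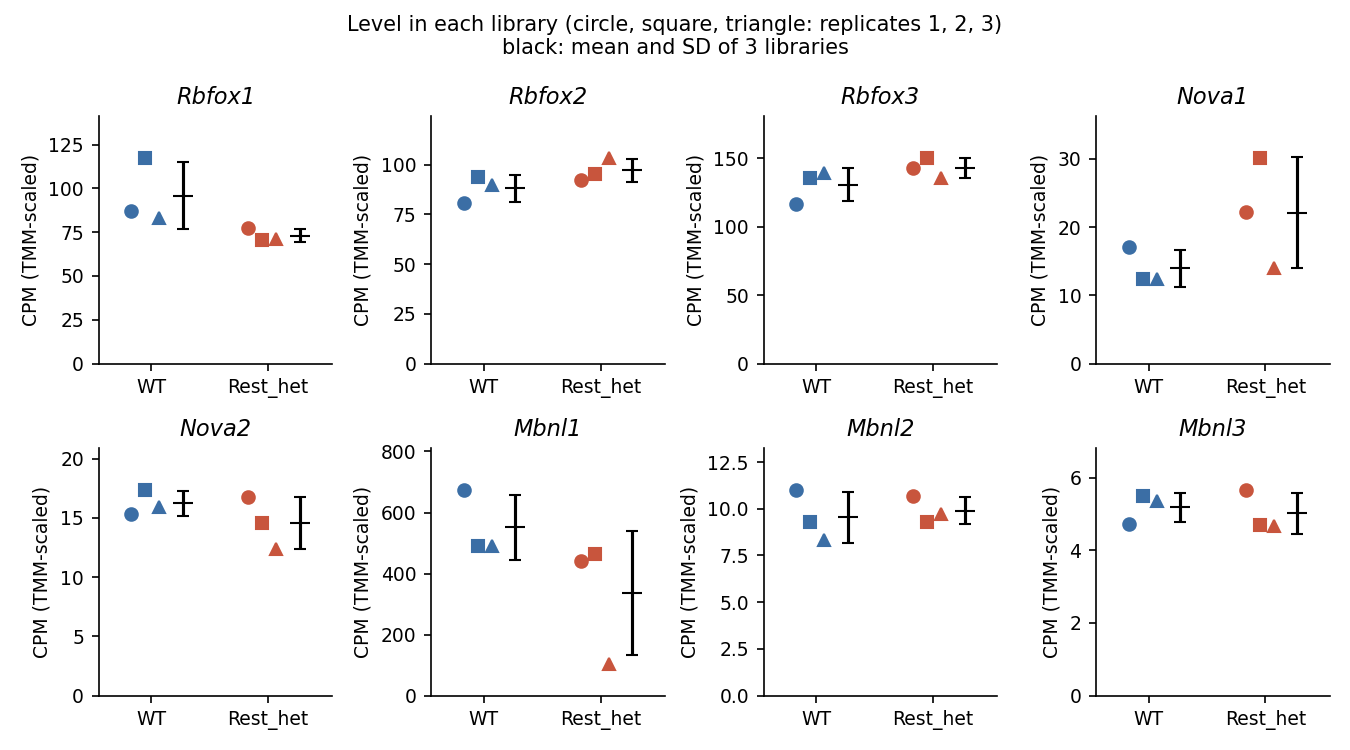
Level of each gene in each library, as TMM-scaled CPM, for WT (blue) and Rest_het (red), with circle, square and triangle for replicates 1, 2 and 3 and the mean and SD of 3 libraries in black. The groups do not overlap for Rbfox1 and Mbnl1 and overlap for the other 6 genes, and Mbnl1 in Rest_het replicate 3 lies at 103 CPM, far below the other 5 libraries.

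Rbfox1, whose product acts in the nucleus and, as another isoform, in the cytoplasm of neurons, lies on chromosome 16 from 5885355 to 7411526 (ENSMUSG00000008658, plus strand, GRCm38). It measured 87.3, 118 and 82.9 CPM in WT replicates 1 to 3, and 77.4, 70.8 and 70.9 CPM in those of Rest_het, the order used throughout. The Rest_het values lay close together below the lowest WT value, and WT replicate 2 stood above the other 2 WT libraries. Between the groups the log2 fold change (Rest_het minus WT) was -0.39 with SE 0.14 and an unadjusted edgeR p of 0.020 (adjusted 0.36). As a ratio this is 0.761-fold with an interval from 0.632 to 0.916 (1.96 SE on each side, as in all intervals here). Without WT replicate 2 it was -0.22 (edgeR adjusted p 0.53).

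Rbfox2, the family member that is also expressed widely outside the nervous system, lies on chromosome 15 from 77078990 to 77307004 (ENSMUSG00000033565, minus strand). WT libraries had 80.6, 93.8 and 89.95 CPM, Rest_het libraries 92.5, 95.3 and 104 CPM. The groups overlapped, with the lowest value in WT replicate 1 and the highest in Rest_het replicate 3. Its log2 fold change of 0.14 had an SE of 0.090 (edgeR adjusted p 0.55), and the interval of the fold ran from 0.975 to 1.25.

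Rbfox3, the NeuN gene, lies on chromosome 11 from 118489762 to 118911597 (ENSMUSG00000025576, minus strand). Its level was 117, 135 and 139 CPM in the WT libraries and 142, 150 and 135 CPM in those of Rest_het. Rest_het replicate 3 lay at the level of WT replicate 2, so the groups overlapped. On the log2 scale the fold change was 0.13 with SE 0.093 (edgeR adjusted p 0.60), with an interval of the fold from 0.964 to 1.24. In the same libraries a list of 10 neuronal marker genes summed to 3186 to 3378 CPM in WT and 2597 to 2953 CPM in Rest_het. Of these 10 markers 6 had log2 fold changes below 0 and 4 above. By an unadjusted edgeR p under 0.05, 4 were lower and 0 higher in Rest_het, against 11.7% of all genes in either direction. DESeq2 called 2, against 0.826% of all genes. The part of these markers in the Rbfox values was not tested.

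Nova1 lies on chromosome 12 from 46694517 to 46818929 (ENSMUSG00000021047, minus strand) and encodes an antigen of paraneoplastic ataxia. The WT libraries had 17.1, 12.4 and 12.4 CPM, those of Rest_het 22.2, 30.2 and 14.0 CPM. Rest_het replicates 1 and 2 lay above every WT library, and Rest_het replicate 3 lay within the WT range. Its log2 fold change was 0.66 with SE 0.27 and an unadjusted edgeR p of 0.038 (adjusted 0.41), or 1.58-fold with an interval from 1.10 to 2.27. Leaving out Rest_het replicate 3 gave 0.91 with an edgeR adjusted p of 0.20, and leaving out Rest_het replicate 2 gave 0.38 with 0.68.

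Rest_het replicate 2, the library with the most Nova1, also had the highest summed level of 8 ventral telencephalon markers, 342 CPM, against 173 to 238 CPM in WT libraries and 190 to 205 CPM in the other Rest_het libraries. Thalamus markers summed to 124 to 222 CPM in WT libraries and to 227, 122 and 191 CPM in Rest_het replicates 1 to 3. Nearly all of this sum was Tcf7l2, at 210, 92.5 and 179 CPM in Rest_het replicates 1 to 3, whose log2 fold change over all libraries was 0.04 (adjusted p 0.98 by edgeR). The other 3 thalamus markers tested, Lhx9, Barhl2 and Prox1, each had an unadjusted edgeR p under 0.05, against 11.7% of all genes. All 3 were higher in Rest_het (edgeR adjusted p 0.33 to 0.35). Each was highest in Rest_het replicate 2, at 14.4, 10.9 and 4.37 CPM. Lhx9 and Prox1 had the order of Nova1 over the Rest_het libraries, with 10.8 and 2.70 CPM in replicate 1 and 6.15 and 1.70 CPM in replicate 3. Barhl2 did not, with 2.70 CPM in replicate 1 and 4.08 CPM in replicate 3. The part of such cells in the Nova1 values was not tested.

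Nova2, the family member found mainly in the cortex, lies on chromosome 7 from 18925888 to 18965319 (ENSMUSG00000030411, plus strand). WT replicates had 15.4, 17.4 and 15.9 CPM and Rest_het replicates 16.7, 14.6 and 12.4 CPM. The groups overlapped, and Rest_het replicate 3 was the lowest library. A log2 fold change of -0.16 with SE 0.14 was measured (edgeR adjusted p 0.66), with an interval of the fold from 0.745 to 1.08.

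The Nova2 counts leave out part of the gene. The long noncoding gene Gm26821 lies on the opposite strand wholly within exons of Nova2 and covers 2652 bases, or 31.7% of them. In a count without strand, reads there belong to both genes and are set aside as ambiguous, and Gm26821 had 0 reads in each of the 6 libraries. The deposited counts per strand setting, which keep such reads, added 78 to 146 reads to Nova2 per library, 30.3 to 45.3% of its unstranded count. With these reads Nova2 measured 22.2 ± 1.34 CPM in WT libraries and 19.4 ± 2.73 CPM in those of Rest_het (SD, n = 3), and the log2 fold change became -0.20 (edgeR adjusted p 0.55). Its mean level became 2.48 RPKM, and Nova1 lay above it in 1 of 6 libraries, in place of 4 of 6. Without strand the added reads could stem from either gene. Mbnl2 gained 1.73 to 7.65% in the same way, through the antisense gene Gm26679, and the other 6 genes at most 3 reads.

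Mbnl1 lies on chromosome 3 from 60472830 to 60629750 (ENSMUSG00000027763, plus strand) and encodes the main muscleblind protein of many tissues. WT libraries had 675, 490 and 490 CPM, from 14146, 9299 and 9533 reads. Rest_het libraries had 440, 466 and 103 CPM, from 8155, 8415 and 1944 reads. One library, Rest_het replicate 3, lay 4.27-fold below the next lowest, while the other 2 Rest_het libraries lay just below the lowest WT library. Over all libraries the log2 fold change was -0.71 with SE 0.47 (edgeR adjusted p 0.56), and the interval of the fold ran from 0.323 to 1.15. Without Rest_het replicate 3 it was -0.28 (edgeR adjusted p 0.49), and without WT replicate 1, the highest library, -0.54 (0.75). The coefficient of variation was 60.2% in Rest_het against 19.4% in WT.

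The low value was shared by few other genes. In Rest_het replicate 3, of 7487 genes above 10 CPM in each of the other 5 libraries, 4 lay more than 2-fold below the lowest of these. Of the 4, 3 lie on chromosome 3, which holds 5.22% of those 7487 genes: Mbnl1, C130089K02Rik (52057285 to 52064244) and 4921511C10Rik (79212919 to 79253913). C130089K02Rik, an unconfirmed transcribed locus by annotation, had 25.5, 18.1 and 29.9 CPM in WT libraries and 13.2, 13.7 and 2.07 CPM in Rest_het libraries. The antisense transcript 4921511C10Rik had 16.9, 13.6 and 16.6 CPM in WT libraries and 12.4, 12.3 and 1.70 CPM in Rest_het libraries. For both, as for Mbnl1, Rest_het replicate 3 was the low library and the other 2 Rest_het libraries also lay below the lowest WT library. Over all genes tested, 8.93% had the 3 Rest_het values below the 3 WT values. The low place of Rest_het replicate 3 was set in advance by how these genes were picked. Without strand, reads of an antisense gene and of its partner cannot be told apart. The fourth gene, Cdr2l on chromosome 11, measured 18.3 CPM in that library against 38.0 to 46.1 CPM in the others. These genes were picked out after their values were seen.

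The genes between them on chromosome 3 did not share the low level. Within 5 Mb of the start of Mbnl1 there were 14 other tested genes with a mean of at least 10 CPM. In Rest_het replicate 3 their log2 CPM differed from the mean of the other 5 libraries by -0.48 to 0.59, with a median of -0.09, where Mbnl1 differed by -2.30. Rap2b, which starts 0.889 Mb from Mbnl1, differed by -0.09. Sequence variants and the place of the reads within Mbnl1 were not analysed here.

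**Figure D3:**
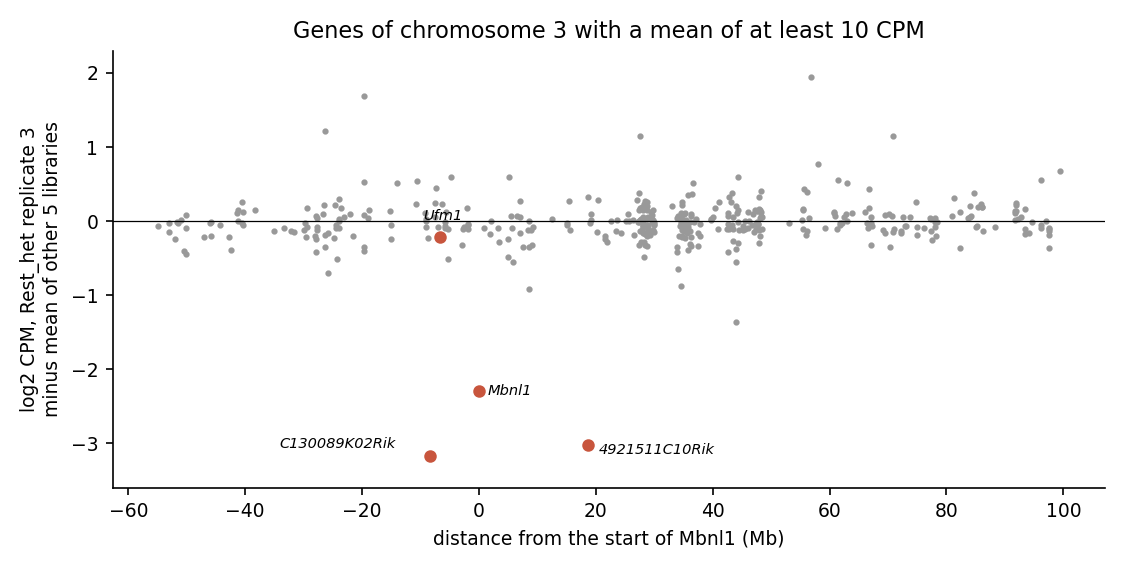
Log2 CPM in Rest_het replicate 3 minus the mean of the other 5 libraries, for 425 tested genes of chromosome 3 with a mean of at least 10 CPM, by distance from the start of Mbnl1 in megabases. Mbnl1, C130089K02Rik and 4921511C10Rik lie below -2, while the genes around them, Ufm1 among them, lie near 0.

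Mbnl2, the muscleblind gene most tied to the adult brain, lies on chromosome 14 from 120275669 to 120431697 (ENSMUSG00000022139, plus strand). WT libraries had 11.02, 9.27 and 8.33 CPM, those of Rest_het 10.7, 9.30 and 9.71 CPM. The Rest_het values all lay within the WT range. Its log2 fold change was 0.05 with SE 0.15 (edgeR adjusted p 0.91), with an interval of the fold from 0.846 to 1.27.

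Mbnl3, the family's X-linked member, lies on chromosome X from 51117269 to 51206532 (ENSMUSG00000036109, minus strand) and is known from muscle precursors and placenta. It had 85 to 105 reads per library, which gave 4.72, 5.48 and 5.35 CPM in WT libraries and 5.67, 4.70 and 4.67 CPM in those of Rest_het. The groups overlapped. Here the log2 fold change was -0.05 with SE 0.17 (edgeR adjusted p 0.93), with an interval of the fold from 0.766 to 1.22. The 2 libraries with Xist reads above 1, WT replicate 2 and Rest_het replicate 3, measured 5.48 and 4.67 CPM. With the level of Xist, the RNA of X inactivation, as a covariate, edgeR called 0 of the 8 genes.

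**Figure D4:**
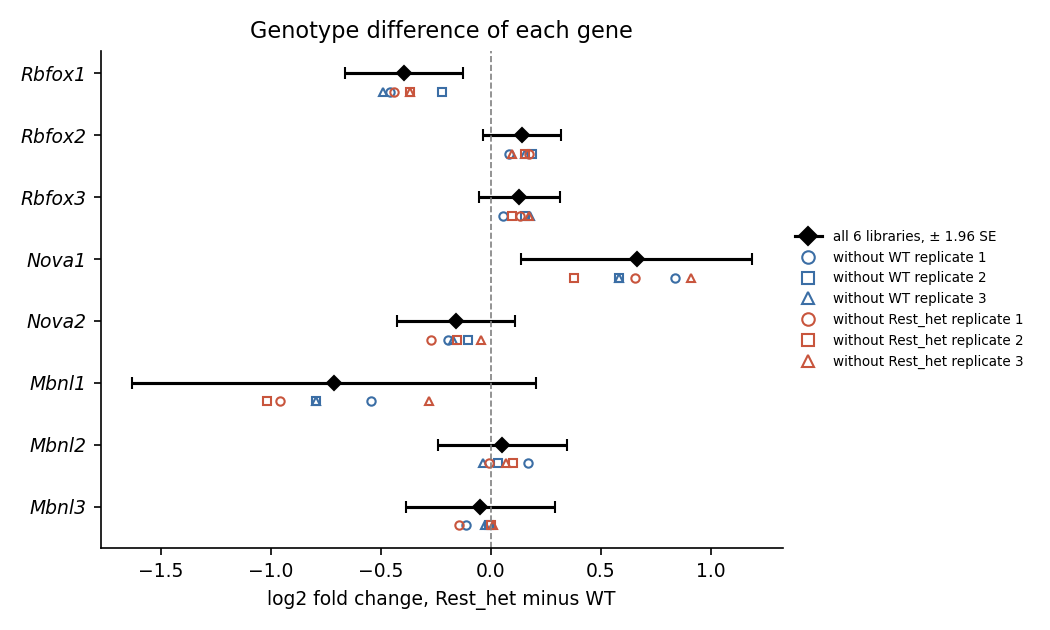
Log2 fold change of each gene, Rest_het minus WT, with all 6 libraries (black, 1.96 SE on each side) and with each library left out (open symbols). Mbnl1 ran from -1.01 to -0.28 and Nova1 from 0.38 to 0.91, and Mbnl2 and Mbnl3 had values on both sides of 0.

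Genes with the most similar course over the 6 libraries were sought for each member among 8270 or 8271 tested genes (without the member itself) with a mean of at least 10 CPM. With 6 libraries such likeness is common: 600 genes had a Pearson r above 0.9 with Rbfox3, 119 with Rbfox1 and 21 with Mbnl2. The closest were Krr1 for Rbfox1, Bicd2 for Rbfox2, Gfer for Rbfox3, Ablim3 for Nova1, Mrgbp for Nova2, Prdm15 for Mbnl2 and Anapc4 for Mbnl3. For Mbnl1 they were Ufm1 and 4921511C10Rik, both on chromosome 3. Ufm1, which encodes a ubiquitin-like modifier, ranged only from 59.3 to 61.7 CPM in 5 libraries and measured 52.1 CPM in Rest_het replicate 3, a much smaller step than that of Mbnl1.

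Proteins that work beside RBFOX in a large splicing complex were compared next. Of 8 partner genes tested, edgeR and DESeq2 each called 0, against 0.123% and 0.826% of all genes. An unadjusted edgeR p under 0.05 was found for 2, against 11.7% of all genes. There were 6 below 0 and 2 above, with a median log2 fold change of -0.11. Hnrnph1, an hnRNP gene, had 291, 310 and 298 CPM in WT libraries and 238, 259 and 264 CPM in Rest_het libraries (log2 fold change -0.24, edgeR adjusted p 0.36). Its groups did not overlap, and the same held for Matr3, which encodes the nuclear matrix protein matrin 3 (-0.21, edgeR adjusted p 0.40), and the helicase gene Ddx5 (-0.15, 0.45).

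Of 36 other regulators of neural splicing, among them the Ptbp, Elavl, Celf, Khdrbs and Pcbp families, 34 were tested. For these edgeR and DESeq2 each called 0, against 0.123% and 0.826% of all genes. There were 15 below 0 and 19 above, with a median log2 fold change of 0.03. Ptbp2, the neuronal polypyrimidine tract protein, had 419, 431 and 421 CPM in WT libraries and 363, 376 and 377 CPM in Rest_het libraries (log2 fold change -0.19, edgeR adjusted p 0.38). Pcbp3 and Pcbp4 encode KH-domain proteins like NOVA and differed by 0.37 and 0.31 on the log2 scale (edgeR adjusted p 0.40 and 0.43). These 3 genes were the ones of the 34 with an unadjusted edgeR p under 0.05, against 11.7% of all genes.

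Gene totals do not measure splicing, but they give the level of transcripts whose exons these factors are known to control. Of such transcripts, 6 of 6 known for RBFOX, 5 of 5 tested for NOVA and 6 of 6 for MBNL had log2 fold changes below 0. The medians were -0.29, -0.14 and -0.16, and single values ran from -1.07 to -0.01. Of all 15385 genes 7553 lay below 0. The lists were chosen with earlier results of these data known and were not tested as sets. These signs therefore cannot show whether such transcripts shift as a group. On each list edgeR called 0, against 0.123% of all genes. An unadjusted edgeR p under 0.05 was found for 2, 2 and 0 genes, against 11.7% of all genes. DESeq2 called 1, 2 and 0, against 0.826% of all genes.

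The lowest p on these lists was that of Glra2, a glycine receptor subunit on the NOVA list. It had 38.1, 36.0 and 43.2 CPM in WT libraries and 18.8, 22.3 and 14.8 CPM in Rest_het libraries. Every Rest_het library was well below every WT library, and the groups differed by -1.07 on the log2 scale (SE 0.15, edgeR adjusted p 0.075). DESeq2 called it, with an adjusted p of 5.2e-07. Dab1, an adaptor of reelin signalling on the same list, differed by -0.14 (edgeR adjusted p 0.61).

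On the RBFOX list, Snap25, a SNARE protein of synaptic release, had 268, 284 and 266 CPM in WT libraries and 197, 219 and 209 CPM in Rest_het libraries. Its log2 fold change was -0.39 (edgeR adjusted p 0.25), and DESeq2 called it with an adjusted p of 0.0090. Fgfr2, a fibroblast growth factor receptor, had -0.36 (edgeR adjusted p 0.37) and the NMDA receptor subunit Grin1 -0.56 (0.52). On the MBNL list, the lowest p was that of Tanc2, a synaptic scaffold, at -0.18 (edgeR adjusted p 0.53), and Mapt, which encodes tau, had -0.13 (0.66). Snap25 also belongs to the neuronal marker list given with Rbfox3.

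Summed levels of markers of other cells varied between single libraries. Of 8 vascular markers 1, Rgs5, was higher in Rest_het at an unadjusted edgeR p under 0.05, against 11.7% of all genes. Of the 8, 6 log2 fold changes were above 0 and 2 below, with a median of 0.21. By the same p, 2 of 4 choroid plexus markers tested and 1 of 9 apical progenitor markers were higher. Of 6 microglial markers 1 was lower, and the count was 0 for meningeal and erythroid markers. The vascular sum was 212 to 327.5 CPM in WT libraries, with 1536, 1237 and 313 CPM in Rest_het replicates 1 to 3. Most of it was Rgs5, a pericyte gene, at 1430 and 1159 CPM in Rest_het replicates 1 and 2. In Rest_het replicate 3 Rgs5 measured 196 CPM, within the WT range of 152 to 216 CPM. Choroid plexus markers summed to 57.7, 2.84 and 4.17 CPM in WT libraries and 179, 7.36 and 374 CPM in Rest_het libraries. Meningeal markers summed to 161 to 435 CPM in WT and 165 to 463 CPM in Rest_het, microglial markers to 34.7 to 44.2 and 36.4 to 47.6 CPM, and erythroid markers to 516 to 654 and 316 to 645 CPM. Apical progenitor markers summed to 1399 to 1634 CPM in WT and 1374 to 1480 CPM in Rest_het. None of the marker genes was at 0 in all libraries, and the part of these cells in the values of the 8 genes was not tested.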

How the data were processed

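RNA of 6 dissected neocortices was reverse transcribed from oligo dT, amplified for 12 PCR cycles, and 125 pg of cDNA was tagmented and read as pairs of 126 bases, per the labels' protocols. The chemistry marks neither strand nor molecules, so PCR copies count as reads, and the read numbers limit the precision. For the deposited read counts per gene, the submitters' processing notes name STAR 2.5.2a and the build GRCm38.p4. Unstranded counts were tested, and the 2 strand columns served only to count reads over genes on both strands. A deposited table of normalized signal, made by the authors with DESeq2 per the submitters' processing notes, equalled these counts divided by 1 size factor per library (relative tolerance 1e-06). Rows naming no gene stayed out: 21.4 to 26.9% of read pairs fell in no gene, 6.29 to 7.48% mapped to several places, 2.54 to 2.85% were ambiguous and 1.21 to 1.45% unmapped.

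Symbols and positions matched 48349 of 48709 gene IDs in GENCODE M21 (GRCm38), which also gave the exon lengths. The test was that of edgeR 4.0.16 in R 4.3.3: TMM scaling, filterByExpr (count at least 10, total at least 15), a quasi-likelihood test on genotype, and Benjamini-Hochberg adjustment over 15385 genes, called under 0.05. SE is the log2 fold change over the root of F, and the prior count of log2 CPM is 1. The pipeline was tested on simulated data. The members and lists were chosen with earlier results of these data known. Named were the 8 members, their overlapping genes, Rest, per list any called gene and the 3 with the smallest p, and the 2 genes of highest Pearson r with each member, of which the text mostly prints the first. The values of some list members are not reported here. List marker genes are named by their sums, with Tbr1, Rgs5 and the 4 tested thalamus markers named after their values were seen, as was Rap2b. Alternatives used DESeq2 1.42.0 and limma 3.58.1, and plots matplotlib 3.10.9.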

Additional observations from a re-analysis of the deposited data

Results flagged for a closer look

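Reads of transgene sequences lay outside the gene counts. LacZ had 121 reads in the 3 WT libraries, 27, 51 and 43, and 0 in each Rest_het library, where a count of 0 allows up to 3 reads, or 0.163 to 0.168 CPM (not TMM-scaled). For Cre-ERT2 there were 43 reads in the 3 Rest_het libraries, 10, 16 and 17, and 0 in each WT library, with the same limit at 0.145 to 0.150 CPM.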

How the results depend on the processing

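Under each of 17 alternatives edgeR, DESeq2 or limma called 0 of the 8 genes. The alternatives were DESeq2 or upper-quartile scaling, DESeq2, limma after voom, limma on the deposited values (log2, 1 added), no filter, at least 1 CPM in 3 libraries, a threshold of 0.10, a replicate block, Xist as a covariate, each library left out and, chosen after seeing the data, the sum of the 2 strand columns. Of 136 fold changes of members under them, 132 kept their direction. Mbnl2 turned to -0.037 without WT replicate 3 and to -0.0092 without Rest_het replicate 1, and Mbnl3 to 0.0006 without Rest_het replicate 2 and 0.0075 without Rest_het replicate 3. Over the left-out libraries the fold changes of Mbnl2 ran from -0.037 to 0.17 and those of Mbnl3 from -0.15 to 0.0075. Of 255 fold changes of 15 related genes none turned, and 7 passed the threshold where the reported one did not. Among them were Glra2 by DESeq2, with no filter (edgeR adjusted p 0.00035), at the threshold of 0.10 and with the Xist covariate (0.041), and Snap25 by DESeq2.

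The count of all genes called, 19, was 127 by DESeq2, 107 with no filter and 6 with the replicate block, and ran from 12 to 35 with each library left out (12 when WT replicate 1 was dropped, 35 for WT replicate 2, 32 for Rest_het replicate 3). Same-numbered libraries did not deviate together (r of 0.02, 0.03 and -0.15), and the main test did not pair them. With 3 libraries per group, these values cannot exclude that some samples shared a litter or preparation. Without length scaling, WT shares were 97.4% for Mbnl1, 1.70% for Mbnl2, 0.944% for Mbnl3, 30.4% for Rbfox1 and 28.1% for Rbfox2, and Rest_het shares 23.3% for Rbfox1 and 31.0% for Rbfox2. With the strand columns summed, Nova2 had 22.2 CPM in WT libraries and 19.4 CPM in Rest_het libraries, and the WT shares were 37.5% for Nova1 and 62.5% for Nova2. Mbnl3, with about 100 reads per library, is limited most by depth.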
